A study of Mus musculus with 3 samples.

Results

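The proliferating cluster of the E14.5 mouse tail is a group of 186 cells from a single-cell RNA sequencing library. Its cells are those that carry cluster code 2 in the deposited tail counts. They make up 9.06% (95% interval 7.86% to 10.4%) of the 2052 tail cells, and the series holds 15827 cells in all. The clusters were made from the expression values themselves, so a difference in a gene between this cluster and the others is a description and no test.

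The tail library came from ScxGFP mice of both sexes on a C57BL6 background, in which the Scx promoter drives a fluorescent reporter. Tails of E14.5 embryos were taken with a scalpel and dissociated with trypsin and collagenase, and dead cells were removed with an Annexin V kit. The number of embryos pooled was not given. A pair of further libraries came from mouse embryonic stem cells, namely 7821 cells of a culture driven toward tenocytes and 5954 cells of embryoid bodies at the paraxial mesoderm stage. The paper derived its stem cells from ScxGFP mice and reached the paraxial mesoderm stage with a Wnt agonist and a BMP inhibitor. The tenocyte culture then received a TGF-beta ligand, a hedgehog pathway agonist and an FGF. There was 1 library per condition and cells are not replicates, so no test between conditions was possible, and the intervals given here cover counting error only.

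Sequencing counted unique molecular identifiers (UMIs), each of which stands for 1 captured transcript. The tail library held 31343741 UMIs, from 891 to 48291 per cell with a median of 13512. The proliferating cells were deeper, with 4329882 UMIs in total, 4054 to 47574 per cell and a median of 22536. Their median of 6033.5 detected genes compared with 4781 in the tendon cells (code 1, 685 cells, median 13463 UMIs), which are the reference throughout. Mitochondrial transcripts made up a median 2.57% of the UMIs of a proliferating cell and 3.21% of those of a tendon cell. To compare groups of unequal depth, UMIs were summed over the cells of a group and scaled to a total of 1000000 per group (counts per that total, CPM). Shares of cells were taken after each cell had been thinned to 3000 UMIs. No barcode of a proliferating cell occurred in another library, while 4 of the tail barcodes occurred in the culture library and 3 in the paraxial mesoderm library. The files identify genes by symbol alone.

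Tendon cells arise from mesenchymal progenitors that express the transcription factor Scx, and they lay down collagen fibres joined by small proteoglycans. A dividing cell first copies its DNA in S phase, when replication enzymes and histones are in demand, and then passes through G2 into mitosis, when cyclin B, mitotic kinases, kinetochores and spindle motors act. Many genes of the last steps share promoter elements through which they are held down in resting cells and released late in the cycle.

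The genes that mark the cluster's label were at their highest in it among the 13 tail clusters. Top2a, the topoisomerase that untangles replicated chromosomes, stood at 1348 CPM in the proliferating cells, 20.2 CPM in the tendon cells, 24.5 CPM in the fibrocartilage cells (code 4, 241 cells) and 102 CPM over all other cells of the tail. Mki67, which coats mitotic chromosomes, stood at 1072, 33.8, 43.5 and 110 CPM in the same groups. Cenpf, a kinetochore protein of G2 and mitosis, stood at 908, 25.5, 32.3 and 90.2 CPM. Next in line for each of these genes came the first of the skin clusters (code 3), with 575, 537 and 597 CPM, so raised levels were not confined to the proliferating cluster. Relative to the tendon cells the ratio was 66.6 for Top2a (57.9 to 76.9), 31.7 for Mki67 (28.4 to 35.5) and 35.6 for Cenpf (31.4 to 40.6).

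**Figure D1:**
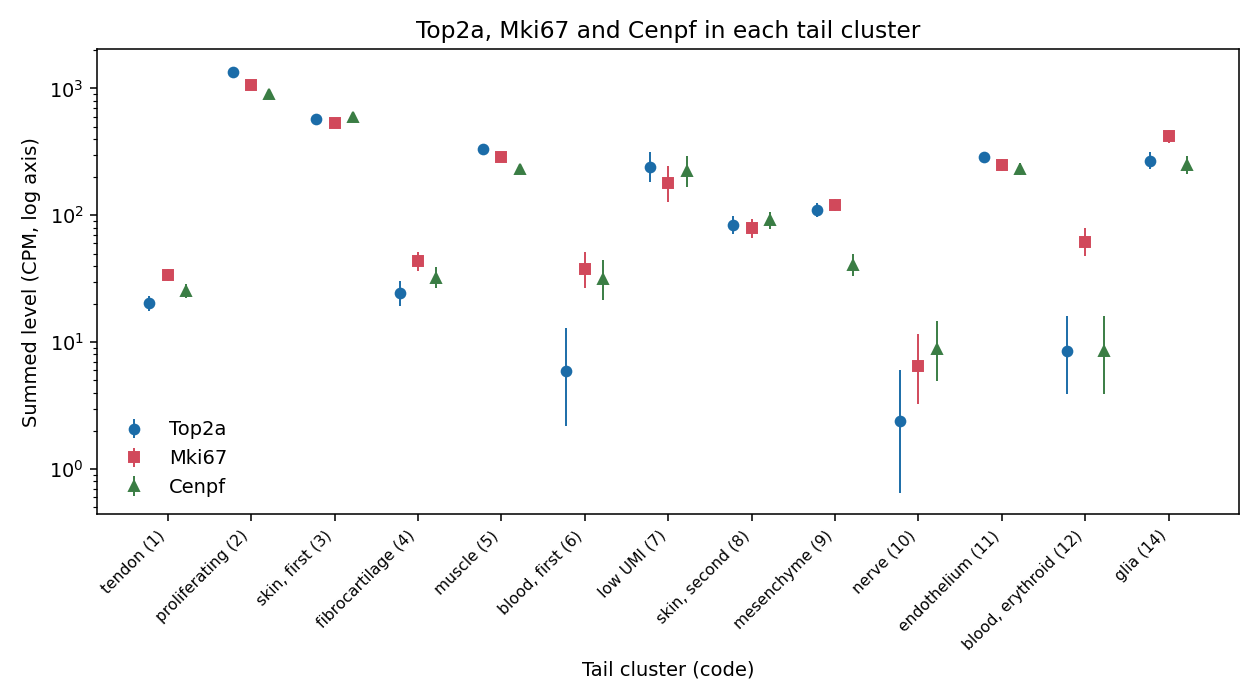
Level of Top2a, Mki67 and Cenpf in CPM (log axis) in each cluster of the tail, with exact 95% Poisson intervals as bars. The proliferating cluster (code 2) is highest for each gene, at 1348, 1072 and 908 CPM.

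Cell by cell, the markers occurred together. At 3000 UMIs per cell, 118 of the 186 proliferating cells (63.4%) held UMIs of Top2a, Mki67 and Cenpf at once, 51 held 2 of them, 9 held 1 and 8 held none. Among the tendon cells deep enough to be thinned, 6 of 678 (0.885%) held all 3 and 11.1% held any. Free RNA can place UMIs in any droplet, and the erythroid cells (code 12, median 8391.5 UMIs) are given beside for that reason. They are no clean background for cell cycle genes, since they held Mki67 at 62.1 CPM, above the 33.8 CPM of the tendon cells, and 902 UMIs of Ube2c. Of 125 erythroid cells none held all 3 markers and 8.80% held any, against 95.7% of the proliferating cells. For Top2a alone the thinned shares were 89.2% of the proliferating, 4.42% of the tendon and 3.20% of the erythroid cells, and without thinning they were 99.5%, 15.2% and 5.47%. For Mki67 they were 90.3%, 6.78% and 4.80% after thinning and 98.9%, 16.6% and 18.0% without it, and for Cenpf 70.4%, 3.83% and 1.60% after thinning and 90.9%, 10.7% and 3.13% without it. Thinning left out 7 tendon cells, 3 erythroid cells and 0 proliferating cells.

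The promoters of the label markers show letters that late cell cycle genes often share, and they are printed here because these genes rise together. Capitals mark matches on either strand to the cell cycle genes homology region (CHR, searched as TTTGAA or TTCGAA) and to the CCAAT box (CCAAT, or ATTGG on the other strand). The promoter of Mcm5, a subunit of the replicative helicase, is printed as an S phase gene for contrast, with capitals for CCAAT and for E2F letters (TTTCCCGC, TTTGGCGC or TTTCGCGC). Each sequence spans 250 bases before to 50 bases after the start of the gene as given by RefSeq on build GRCm38.p6, 5′ to 3′ on the strand of the gene. They are Top2a at chr11:99024140-99024439 on the minus strand, Mki67 at chr7:135716330-135716629 on the minus strand, Cenpf at chr1:189688037-189688336 on the minus strand and Mcm5 at chr8:75109259-75109558 on the plus strand.
Top2a: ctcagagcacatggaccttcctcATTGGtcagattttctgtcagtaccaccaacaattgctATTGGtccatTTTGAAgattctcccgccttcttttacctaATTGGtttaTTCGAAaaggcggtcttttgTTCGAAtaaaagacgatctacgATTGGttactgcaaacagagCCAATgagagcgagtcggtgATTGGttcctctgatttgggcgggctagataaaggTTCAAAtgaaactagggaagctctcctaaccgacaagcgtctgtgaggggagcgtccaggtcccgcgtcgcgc
Mki67: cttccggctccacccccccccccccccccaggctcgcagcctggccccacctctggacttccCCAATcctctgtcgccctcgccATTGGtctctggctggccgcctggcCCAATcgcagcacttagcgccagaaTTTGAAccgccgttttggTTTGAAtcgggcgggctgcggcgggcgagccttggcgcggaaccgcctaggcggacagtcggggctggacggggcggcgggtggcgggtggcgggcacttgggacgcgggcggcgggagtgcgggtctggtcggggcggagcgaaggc
Cenpf: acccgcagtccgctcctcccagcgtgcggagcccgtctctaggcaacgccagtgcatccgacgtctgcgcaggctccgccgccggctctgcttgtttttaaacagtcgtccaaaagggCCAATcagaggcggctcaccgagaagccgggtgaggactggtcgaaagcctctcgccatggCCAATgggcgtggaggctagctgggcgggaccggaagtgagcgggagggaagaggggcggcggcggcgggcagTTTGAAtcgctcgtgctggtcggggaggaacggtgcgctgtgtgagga
Mcm5: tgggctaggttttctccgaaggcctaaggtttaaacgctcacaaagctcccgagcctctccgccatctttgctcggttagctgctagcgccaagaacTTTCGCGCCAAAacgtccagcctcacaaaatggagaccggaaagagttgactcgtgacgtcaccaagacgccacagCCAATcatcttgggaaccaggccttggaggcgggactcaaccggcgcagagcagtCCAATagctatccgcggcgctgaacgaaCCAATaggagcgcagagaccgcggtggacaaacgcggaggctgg

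Top2a carried 4 CHR and 6 CCAAT matches, Mki67 2 and 3, and Cenpf 1 and 2, with 0 E2F matches in each. Mcm5 carried 0 CHR and 3 CCAAT matches, and 2 E2F matches that overlap in a single run of capitals. Over all 32851 promoters of 27025 genes, 19.2% held CHR letters, 37.4% CCAAT letters, 7.52% both and 1.84% E2F letters. Among the spindle genes described later, 25 of 27 matched the promoter table, and 82.1% of their 28 promoters held CHR letters and 60.7% CCAAT letters. Mitotic regulators, with 20 of 25 matched and 21 promoters, held CHR letters in 66.7% and CCAAT letters in 81.0%. For centromere genes (26 of 30 matched, 29 promoters) the shares were 44.8% and 75.9%. S phase genes (33 of 39 matched, 38 promoters) held CHR letters in 13.2%, CCAAT letters in 63.2% and E2F letters in 34.2%. Genes of the anaphase-promoting complex (18 of 19 matched, 21 promoters) held CHR letters in 23.8% and CCAAT letters in 42.9%, nearer to all promoters. Condensin, cohesin and topoisomerase genes (13 of 16 matched, 14 promoters) held CHR letters in 50%, CCAAT letters in 50% and E2F letters in 35.7%. Shares are not given where a smaller part of the genes matched the promoter table than the 20 of 25 of the mitotic list. This left out the G1 list (13 of 17), the tendon list (19 of 32) and the histone and chromatin list (6 of 24). It also left out the genes tested between proliferating and tendon cells (8545 of 11298), so the shares over all promoters are not those of the genes tested. A match is a description of the letters and not evidence of binding.

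Across the transcriptome, 11298 genes could be compared between proliferating and tendon cells, being those seen in 10% or more of the cells of 1 group or the other. Of these, 618 (5.47%) were at least 2-fold higher in the proliferating cells and 312 (2.76%) at least 2-fold lower. The median log2 ratio of all genes was -0.11. Relative to that median, 691 genes were at least 2-fold higher and 219 at least 2-fold lower. Of the 618 higher genes, 177 belonged to the cell cycle lists used here, including the S phase and G2M lists used for single cells below, and the remainder fell outside them. A gene that passed the filter through 1 group alone can hardly come out lower in that group. Counts of list genes in 1 direction, here and in the comparisons below, are therefore partly set by the filter.

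The genes with the highest ratios over the tendon cells had varied roles. Nusap1, which bundles spindle microtubules, stood at 330 CPM in the proliferating and 2.86 CPM in the tendon cells, a ratio of 115 (79.8 to 173). Esco2, the acetyltransferase that locks cohesin onto copied DNA, went from 1.68 to 192 CPM, also a ratio of 115 (71.1 to 198). Among those that followed were Hist1h1b, Aurkb, Neil3, Kif11, Cdca2, Iqgap3, Hist1h2ak, Top2a, Prc1, Knl1, Ndc80 and Ckap2l, down to a ratio of 55.3. Neil3, a DNA repair glycosylase, had a ratio of 80.1 (44.3 to 162), and Cdca2, which recruits a phosphatase to chromatin at the end of mitosis, 72.6 (44.9 to 126).

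Genes at the other end of the ranking were lower in the proliferating cells by far smaller factors. The neurofilament genes Nefm, at 23.6 CPM against 102 CPM in the tendon cells, and Nefl, at 25.4 against 99.6 CPM, had ratios of 0.231 (0.187 to 0.283) and 0.255 (0.208 to 0.311). Then came Myh11, Mxra8, Cpa6, C1qtnf3, Mxd4, Kdm7a, Tbx3os1, Ogn, Pcdh10, Fgf18, Pid1, Rprm and Pgm5, up to a ratio of 0.409. Mxd4, a repressor that competes with MYC for its partner MAX, stood at 58.7 against 175 CPM, and Fgf18, a growth factor ligand, at 23.6 against 62.0 CPM. Rprm, which can arrest cells in G2, was at 21.0 CPM in the proliferating and 55.0 CPM in the tendon cells.

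Genes of DNA replication formed the first step of the programme. Of 39 tested, 31 were at least 2-fold higher than in the tendon cells and 0 lower, with a median log2 ratio of 1.74. Pclaf, which binds the sliding clamp PCNA, stood at 1015 CPM against 48.8 CPM, a ratio of 20.8 (18.9 to 22.9). Enzymes that supply nucleotides rose strongly, with thymidine kinase Tk1 at 144 against 6.52 CPM, the ribonucleotide reductase subunit Rrm2 at 322 against 24.0 CPM and thymidylate synthase Tyms at 343 against 44.9 CPM. Subunits of the MCM helicase were among the genes that changed less. Mcm5 stood at 125 against 51.0 CPM, a ratio of 2.46 (2.17 to 2.78), and Mcm7 had a ratio of 2.01, while Mcm2, Mcm3, Mcm4 and Mcm6 lay between 1.29 and 1.87. The other genes of the list under 2-fold were Cdt1, Orc6, Rfc3 and Ung. The clamp gene Pcna itself stood at 72.1 against 21.5 CPM, a ratio of 3.35.

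Genes that carry cells from G1 into S phase differed by type. D cyclins, which answer growth signals early in G1, had ratios below 1 that did not reach 2-fold. Ccnd2 stood at 341 against 579 CPM, a ratio of 0.59 (0.56 to 0.62), Ccnd1 at 153 against 210 CPM and Ccnd3 at 205 against 261 CPM. E cyclins, which act at the entry to S phase, were higher, with Ccne1 at 110 against 40.9 CPM and Ccne2 at 62.4 against 11.1 CPM, the latter a ratio of 5.64 (4.51 to 7.09). The E2F repressors of late S phase rose furthest, E2f7 by a ratio of 10.6 and E2f8 by 13.7. Activators were not alike, since E2f1 had a ratio of 1.90 while E2f2 was higher by more. E2f2 had 77 UMIs in the proliferating cells and 23 UMIs in the tendon cells, a group with more UMIs in all. In all, 6 of 17 genes were at least 2-fold higher and 0 lower, with a median log2 ratio of 0.62.

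Inhibitors of cyclin-dependent kinases were present as well. Cdkn1c, which codes for p57, was abundant in both groups, at 2868 CPM in the proliferating and 3696 CPM in the tendon cells, a ratio of 0.776 (0.760 to 0.792). At 3000 UMIs it was found in 98.4% of the proliferating, 97.1% of the tendon and 4.80% of the erythroid cells, and without thinning in 100%, 100% and 14.8%, so cells with replication and mitotic transcripts carried p57 transcripts too. Cdkn2c, which codes for p18, went the other way, from 1.09 to 28.9 CPM, a ratio of 26.6 (14.4 to 54.6). Cdkn1b stood at 134 against 73.4 CPM, Cdkn2d at 106 against 28.0 CPM, and Cdkn1a at 8.78 against 2.57 CPM. Of the 7 inhibitor genes, 5 passed the filter, 3 of them at least 2-fold higher and 0 lower, with a median log2 ratio of 1.77. Cdkn2a had 1 UMI and Cdkn2b had 0 UMIs in the proliferating cells.

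Mitotic cyclins, kinases and regulators were all higher, 25 of 25 tested by at least 2-fold, with a median log2 ratio of 4.49. Aurkb, the kinase of the chromosomal passenger complex, stood at 218 against 2.37 CPM, a ratio of 92.1 (61.5 to 144). Ccnb1, the cyclin that drives entry into mitosis, stood at 239 against 4.84 CPM, a ratio of 49.4 (37.1 to 67.3), and its partner kinase Cdk1 at 483 against 29.1 CPM, a ratio of 16.6 (14.7 to 18.8). Plk1, a kinase of spindle assembly, stood at 146 against 3.65 CPM and Ccna2, the cyclin of S phase and G2, at 317 against 11.4 CPM. Foxm1, a transcription factor of G2 genes, was at 64.2 against 2.86 CPM. The smallest ratios of the list were 2.81 for Cks1b and 3.37 for Bub3. In 23 of these 25 genes the proliferating cluster had the highest level of the 13 clusters. Without thinning, Aurkb was held by 89.8% of the proliferating and 3.21% of the tendon cells, and Ccnb1 by 77.4% and 4.82%. Such genes passed the filter through the proliferating cells alone and could hardly come out lower, so the count is a description.

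The anaphase-promoting complex, the ubiquitin ligase that ends mitosis, differed most in its activators and conjugating enzymes. Its activator Cdc20 stood at 231 against 11.9 CPM, a ratio of 19.5 (16.1 to 23.8). The conjugating enzymes that load it, Ube2c and Ube2s, stood at 948 against 21.4 CPM and at 875 against 279 CPM. The other activator, Fzr1, was at 92.6 against 34.5 CPM. These 4 of 19 genes tested passed 2-fold, none was 2-fold lower, and the median log2 ratio was 0.32. Core subunits had ratios from 0.788 for Anapc16 to 1.98 for Anapc15, which stood at 49.2 against 24.9 CPM. With ratios taken relative to the median gene, with the mean over cells, after thinning to 10000 UMIs or without haemoglobin-rich cells, 5 genes of the list passed. The ratio of the securin gene Pttg1, 1.01 (0.84 to 1.21), changed direction with the scaling.

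Genes of the centromere and kinetochore, where chromosomes attach to the spindle, were at least 2-fold higher in 29 of 30 cases, with 0 lower and a median log2 ratio of 3.64. Cenpt, at a ratio of 1.61, was the exception. The outer kinetochore scaffold Knl1 stood at 299 against 5.14 CPM, a ratio of 58.3 (44.2 to 78.5), and Ndc80, which grips microtubules, at 153 against 2.77 CPM. Cenpa, the histone variant that marks the centromere, was at 478 against 58.5 CPM, a ratio of 8.18 (7.46 to 8.98).

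Spindle, kinesin and cytokinesis genes had a median log2 ratio of 4.79, next to 5.15 for the label markers, with 26 of 27 at least 2-fold higher and 0 lower. The motor Kif11, which pushes spindle poles apart, stood at 373 against 4.94 CPM, a ratio of 75.6 (57.0 to 102). Prc1, which crosslinks the spindle midzone, stood at 519 against 8.89 CPM, and Tpx2, which nucleates microtubules near chromosomes, at 474 against 22.5 CPM. Numa1, a spindle pole organiser that also occurs in resting nuclei, was the exception with a ratio of 1.33 (1.20 to 1.47). In each of the 27 genes the proliferating cluster ranked highest of the 13 clusters, which it did in 25 of the 30 centromere genes, 24 of 39 S phase genes, 12 of 16 condensin, cohesin and topoisomerase genes, 18 of 24 histone and chromatin genes, 9 of 19 genes of the anaphase-promoting complex, 4 of 17 G1 genes and 2 of 7 CDK inhibitors.

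Condensin folds chromosomes for mitosis and cohesin holds their copies together, and subunits of each lay on both sides of 2-fold. The condensin subunits Smc4, at 635 against 67.5 CPM, and Ncapg, at 151 against 2.96 CPM, had ratios of 9.41 (8.65 to 10.2) and 50.9 (35.3 to 76.1), whereas the condensin subunit Ncaph2, at 53.4 against 30.1 CPM, had 1.77. Cohesin subunits Smc1a, Smc3, Stag1 and Stag2 had ratios of 1.76, 1.43, 1.27 and 1.40, and the cohesin subunit Rad21 had 2.84. Top2b, the topoisomerase that resting cells use in place of Top2a, stood at 399 against 392 CPM, a ratio of 1.02 (0.96 to 1.08). In this list 9 of 16 genes were at least 2-fold higher and 0 lower, with a median log2 ratio of 1.64.

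Histone genes differed widely among themselves. The linker histone gene Hist1h1b stood at 5203 CPM in the proliferating and 54.2 CPM in the tendon cells, a ratio of 96.0 (88.2 to 105), and Hist1h2ae at 1089 against 29.2 CPM, a ratio of 37.3 (33.1 to 42.1). Hist1h1e, another linker histone, was at 1529 against 129 CPM. The variant H3f3a, which is made throughout the cycle, stood at 2647 against 2572 CPM, a ratio of 1.03 (1.01 to 1.05), and H2afz at 3383 against 1037 CPM. Hist1h2bc, at 12.9 against 29.8 CPM, was the only histone gene tested to be at least 2-fold lower, with a ratio of 0.43 (0.32 to 0.58), and it did not pass when the mean over cells was taken. The list of histones and chromatin proteins also holds the genes Hmgb1, Hmgb2 and Hmgn2, which code for no histones. Of its 24 genes 23 were tested, 17 were at least 2-fold higher, and the median log2 ratio was 2.98. Histone genes are much alike in sequence and reads that map to several genes were ignored, so the value of a single histone gene carries that uncertainty.

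**Figure D2:**
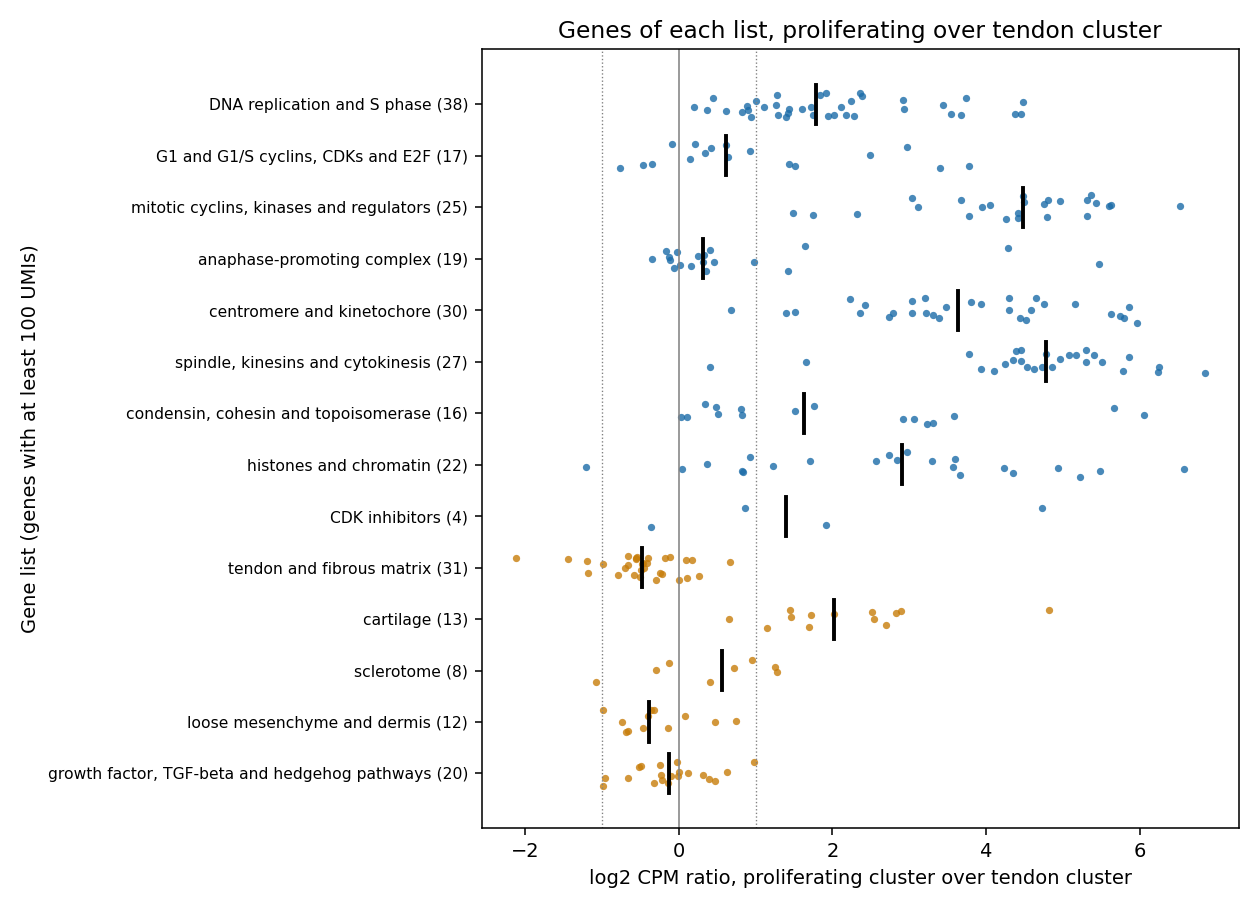
Log2 ratio of CPM in the proliferating cells over CPM in the tendon cells, with a dot for each gene that has at least 100 UMIs, a black bar for the median of those genes and dotted lines at 2-fold. Spindle, mitotic and centromere genes lie highest and tendon genes lie mostly below 0, and medians differ slightly from those of the text because the genes were chosen by UMIs here.

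Within the cluster, cells were spread between S phase transcripts and those of G2 and M phase. The share of UMIs from a list of 43 S phase genes ranged from 0.0874% to 1.38% per cell with a median of 0.670%, and the share from a list of 54 G2 and M phase genes (the G2M list) from 0.341% to 5.99% with a median of 1.76%. Medians in the tendon cells were 0.169% and 0.195%. The shares ran in opposite directions among the proliferating cells, with a Spearman correlation of -0.71 over 186 cells of 1 library, a description across cells that differ in depth. Against the 95th percentile of the tendon cells, which was 0.504% for S phase and 0.467% for G2M, 119 proliferating cells lay above both, 62 above the G2M level alone, 5 above the S phase level alone and 0 below both.

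Single transcripts differed between these groups of cells. Hist1h1b, Mcm3 and Ccnb1 are in neither list, while Ccne2 is in the S phase list and Cdc20, Cenpf, Top2a and Mki67 are in the G2M list that formed the groups. Cells above both levels (median 21670 UMIs) held Hist1h1b at 7109 CPM, and those above the G2M level alone (median 25267 UMIs) at 2262 CPM. Ccne2 fell from 92.0 to 2.68 CPM between these groups and Mcm3 from 218 to 40.2 CPM. Late transcripts rose instead, Ccnb1 from 80.1 to 548 CPM, Cdc20 from 59.6 to 563 CPM and Cenpf from 368 to 1968 CPM. Top2a and Mki67 differed less, at 1290 and 930 CPM in the first group and 1573 and 1416 CPM in the second. Of the tendon transcripts followed here, Scx went from 1229 to 2486 CPM and Tnmd from 59.2 to 206 CPM, whereas Dcn (883 and 929 CPM), Col1a1 (2118 and 2314 CPM) and Mkx (23.8 and 25.4 CPM) differed little, and the part of cell origin in this was not tested. In the 5 cells above the S phase level alone, Top2a stood at 159 CPM and Cenpf at 26.4 CPM, Plk1 had 0 UMIs, and Tnmd stood at 106 CPM.

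**Figure D3:**
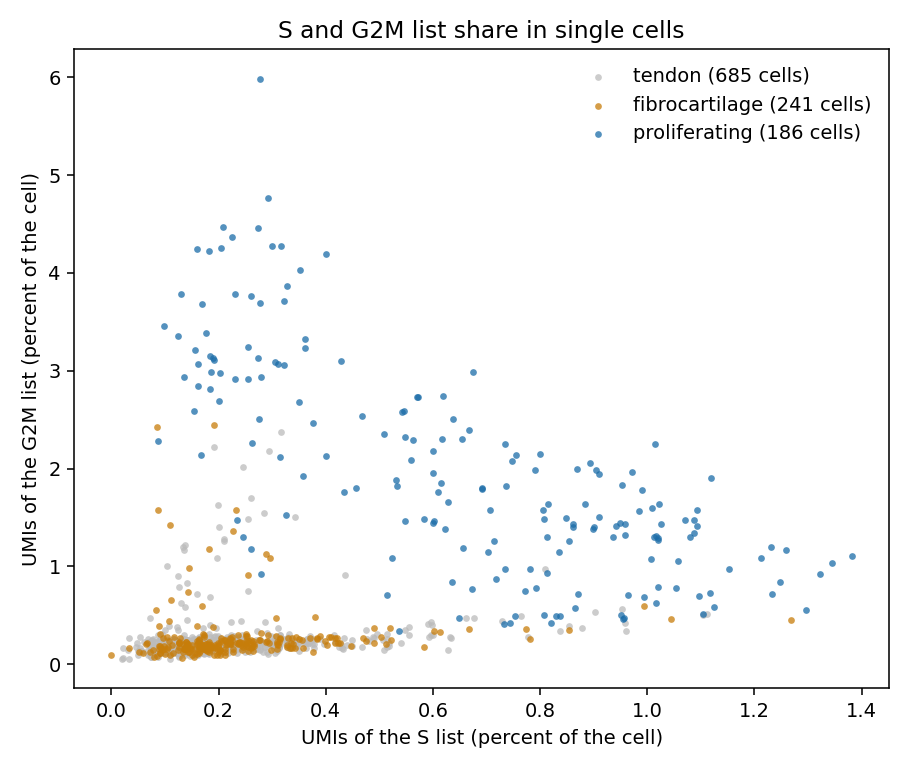
Share of the UMIs of each cell from the S phase list (horizontal axis, percent) and the G2M list (vertical axis, percent) for tendon, fibrocartilage and proliferating cells, with a point per cell. Proliferating cells form an arc from high S phase shares to high G2M shares, with medians of 0.670% and 1.76% against 0.169% and 0.195% in the tendon cells.

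How many other cells of the tail reached these levels depended on the level chosen. Of 1866 cells outside the cluster, 65 (3.48%) had a G2M share at or above the cluster's median. They lay mostly in the low-UMI cluster (20 cells, 23.3% of it) and the first skin cluster (13 cells, 26.5%), followed by muscle and endothelium with 9 each. In the tendon cluster 4 of 685 cells (0.584%) did so, and in the fibrocartilage cluster 2. At the 10th percentile of the cluster, which 167 of its own cells reached, 200 outside cells (10.7%) did so too, among them 38 of 49 cells of the first skin cluster (77.6%), 41.9% of the low-UMI cluster and 24 tendon cells (3.50%).

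Of 30 tendon genes tested, 5 had a ratio above 1 over the tendon cells, against 4322 of the 11298 genes in all, and the transcription factor Scx and other markers are described first. Scx stood at 1664 CPM, between the tendon cells at 1472 CPM and the fibrocartilage cells at 1905 CPM, a ratio of 1.13 (1.10 to 1.16) over the tendon cells. At 3000 UMIs it was found in 37.1% of the proliferating cells (30.1% to 44.5%), 36.4% of the tendon cells (32.8% to 40.2%) and 3.20% of the erythroid cells, and without thinning in 54.3%, 52.6% and 10.2%. Tnmd, a membrane protein of tenocytes, stood at 111 CPM against 93.0 CPM in the tendon cells and 8.77 CPM in fibrocartilage. Kera, a proteoglycan core protein that was under the filter and so not among the 30 tested, stood at 31.9 against 20.1 CPM. For Tnmd and Kera the proliferating cluster was the highest of the 13. The share of cells with a Tnmd UMI was not higher, at 5.91% of the proliferating and 8.55% of the tendon cells after thinning and 14.52% and 15.8% without it, and 0 of 128 erythroid cells held 1. Mkx, a transcription factor of collagen genes, stood at 24.0 against 22.3 CPM, a ratio of 1.08 (0.84 to 1.36). The ScxGFP reporter transcript was at 48.5 against 46.1 CPM, a ratio of 1.05 (0.89 to 1.24).

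The other 25 tested tendon genes, many of them of the matrix, had ratios below 1, most of them within 2-fold. The fibrillar collagen genes Col1a1 and Col3a1 stood at 2240 against 3185 CPM and 2432 against 3557 CPM, ratios of 0.70 (0.69 to 0.72) and 0.68 (0.67 to 0.70). Decorin (Dcn), a proteoglycan that spaces collagen fibrils, stood at 925 against 1499 CPM, a ratio of 0.62 (0.60 to 0.64), and was at 36.3 CPM in fibrocartilage. Past 2-fold lay osteoglycin (Ogn) at 173 against 471 CPM, asporin (Aspn) at 73.2 against 165 CPM, the collagen crosslinking enzyme Lox at 105 against 240 CPM and the transcription factor Six2 at 3.002 against 13.0 CPM. Other matrix genes were level or went the other way. Tenascin C (Tnc) had a ratio of 1.07 (0.95 to 1.20), Kera, which was not tested, lay above 1, and Fmod and Col6a3 changed direction with the scaling. Ogn, Aspn, Lox and Six2 were the only 4 of 30 tested genes of a 32-gene tendon list to be at least 2-fold lower, 0 were at least 2-fold higher, and the median log2 ratio was -0.48. After thinning to 10000 UMIs 3 of 29 were lower.

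The 18 cartilage genes each had a level between those of the tendon and fibrocartilage cells, while genes of the sclerotome, the part of the somite that forms the axial skeleton, did so in part. Among the latter, Pax9 stood at 73.7 CPM, below both the tendon (80.3 CPM) and the fibrocartilage cells (181 CPM), and Tbx18 at 31.6 CPM, above both (23.9 and 9.37 CPM). Sox9, the transcription factor of chondrocytes, stood at 209 CPM in the proliferating, 63.4 CPM in the tendon and 1214 CPM in the fibrocartilage cells. Aggrecan (Acan), the large proteoglycan of cartilage, stood at 27.9, 0.99 and 259 CPM, a ratio of 28.3 (14.9 to 60.5) over the tendon cells. It was under the filter and not among the genes tested, as only 15 proliferating cells (8.06%) and 7 tendon cells (1.02%) held a UMI without thinning. Of 18 cartilage genes 12 were tested against tendon, and 11 were at least 2-fold higher, with Col9a2 at 1.57 the exception and a median log2 ratio of 1.88. Pax1, a transcription factor of the sclerotome, stood at 290, 122 and 1073 CPM, and Meox1, a somite homeobox gene, at 20.6, 43.3 and 19.4 CPM. In the sclerotome list 8 of 9 genes were tested, 2 (Pax1 and Uncx) were at least 2-fold higher and 1 (Meox1) lower, with a median log2 ratio of 0.56. Relative to the median gene 3 were higher and 0 lower, and after thinning to 10000 UMIs 1 was higher and 0 lower of 7 tested. At 3000 UMIs Sox9 was found in 24.2% of the proliferating, 13.3% of the tendon and 77.5% of the fibrocartilage cells (median 13136 UMIs, 1 cell left out), and in 0 of 125 erythroid cells, a count that allows a share of up to 2.91%. Without thinning it was found in 43.5%, 27.0% and 92.1% of these and 0.781% of the erythroid cells.

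To see which other cluster each proliferating cell was closest to, its counts were compared with the profile of every other tail cluster over 27338 genes, after 417 genes of the cell cycle and marker lists had been left out. The cell was placed with the profile under which its counts were most likely. Of the 186 cells, 108 (58.1%, 50.6% to 65.2%) were nearest to tendon, 55 (29.6%, 23.1% to 36.7%) to fibrocartilage, 19 (10.2%, 6.26% to 15.5%) to mesenchyme (code 9) and 4 (2.15%, 0.589% to 5.41%) to muscle (code 5). The remaining 8 clusters received 0 cells. The label of tendon cells therefore does not cover every cell, and the count depends on the measure. Spearman correlation over the most variable genes placed 76 (40.9%) with tendon, 58 with fibrocartilage, 33 with mesenchyme, 14 with muscle and 5 with other clusters. By that measure 149 of the 186 cells kept their placing. The method returned 98.4% of the tendon cells, 94.2% of the fibrocartilage cells and 75.8% of the mesenchyme cells to their own cluster, with 38 of 157 mesenchyme cells going to tendon. The median gap between the best and the next profile was 716 log-likelihood units, and it was under 10 in 1 cell.

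Genes that had been left out of the placing differed between the groups so formed. The tendon-nearest cells held Tnmd at 177 CPM, the fibrocartilage-nearest cells at 11.2 CPM, and the mesenchyme-nearest cells had 0 UMIs. Dcn stood at 1256, 63.7 and 1361 CPM in the same order, Col2a1, the main cartilage collagen gene, at 96.0, 2463 and 5.13 CPM, and Sox9 at 31.4, 708 and 5.13 CPM. Acan had 0 UMIs in the tendon-nearest cells against 104 CPM in the fibrocartilage-nearest cells. The intermediate cartilage levels of the whole cluster were therefore averages over groups with high and groups with low levels. Because the cells were grouped by likeness to these profiles, this is a description. Whether single cells formed separate groups or a gradient was not tested. Scx was high in the tendon- and fibrocartilage-nearest cells, at 1808 and 1948 CPM, and low in the mesenchyme-nearest cells, at 99.9 CPM, where Twist2, a transcription factor of dermal mesenchyme, stood at 692 CPM against 132 and 91.3 CPM. Top2a was at 1210, 1687 and 1415 CPM, high in each group.

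**Figure D4:**
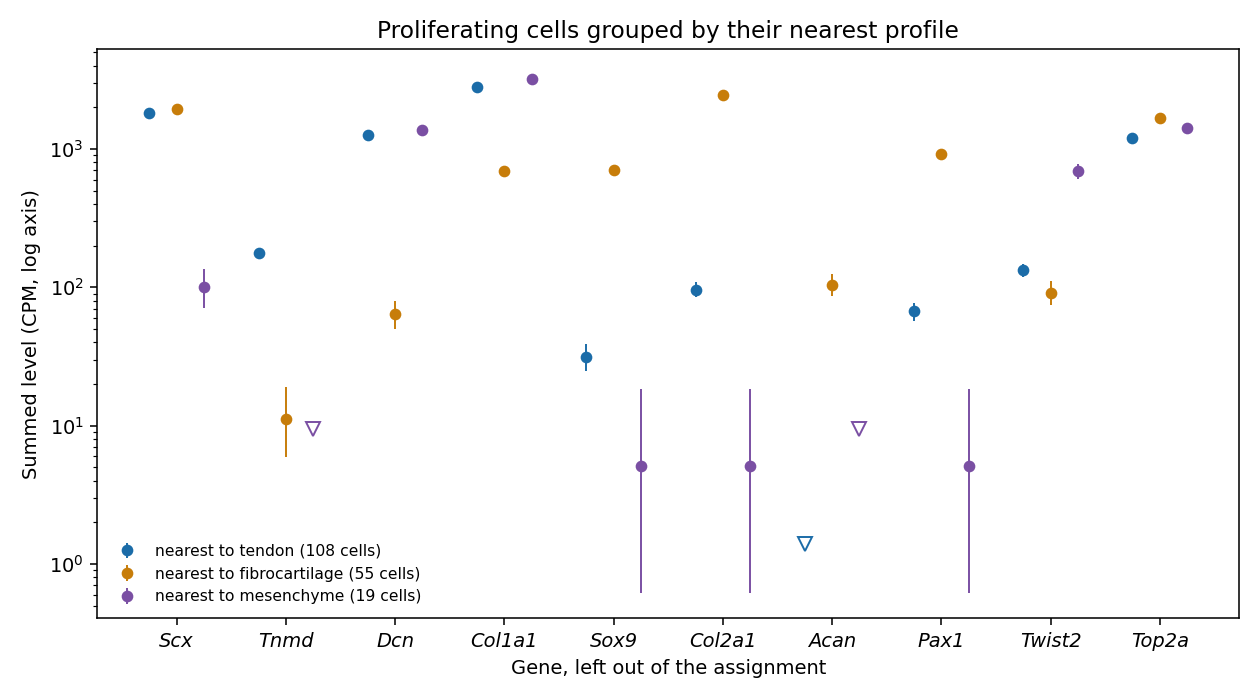
Level in CPM (log axis) of genes left out of the placing in proliferating cells nearest to tendon (108 cells), fibrocartilage (55) and mesenchyme (19), with exact 95% Poisson intervals as bars and open triangles for the upper limit where a group had 0 UMIs. Tnmd is highest in the tendon-nearest cells, and Sox9, Col2a1, Acan and Pax1 in the fibrocartilage-nearest cells.

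Between the tendon- and fibrocartilage-nearest cells, 1125 of 11805 genes (9.53%) were at least 2-fold higher in the former and 585 (4.96%) lower, with a median log2 ratio of 0.01. Cell cycle genes seldom passed 2-fold. None of 25 mitotic and none of 27 spindle genes passed 2-fold either way, but only 3 and 2 of them had a ratio above 1, against 6019 of the 11805 genes in all, with medians of -0.20 and -0.18. Of 39 S phase genes 1 was higher and 19 had a ratio above 1, with a median of -0.01, and of 23 histone and chromatin genes 2 were lower and 0 had a ratio above 1, with a median of -0.51. By contrast 14 of 14 cartilage genes were lower, with a median of -4.47, and 18 of 30 tendon genes higher and 1 lower, with a median of 1.31. The groups were formed by likeness to the tendon and fibrocartilage profiles, so these differences are a description. The median G2M share was 1.47% in the tendon-nearest, 2.06% in the fibrocartilage-nearest and 2.28% in the mesenchyme-nearest cells.

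The tendon-nearest cells were also set against the tendon cluster. Of 11487 genes, 561 (4.88%) were at least 2-fold higher in them and 251 (2.19%) lower, with a median log2 ratio of -0.10. All 25 mitotic genes were higher, with a median of 4.44, and 31 of 39 S phase genes, with a median of 1.75. In the tendon list 1 of 31 genes was higher and 2 lower, with a median of -0.18. Tnmd had a ratio of 1.90 (1.70 to 2.13), Kera 2.59 (2.07 to 3.23) and Scx 1.23 (1.19 to 1.27), each further above 1 than over the whole cluster. Col1a1 had 0.884 (0.862 to 0.907) and Dcn 0.838 (0.807 to 0.870), nearer to 1 than over the whole cluster, whereas Ogn was still low at 0.473 (0.433 to 0.515) and Aspn at 0.519 (0.450 to 0.596). In the cartilage list 0 of 11 genes were higher and 3 lower, with a median of -0.71. The rise seen over the whole cluster was absent here. These cells were picked for likeness to the tendon profile and the tendon cluster was not, so these ratios are a description.

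The fibrocartilage-nearest cells held less cartilage matrix transcript than the fibrocartilage cluster. Here 700 of 11010 genes (6.36%) were at least 2-fold higher and 577 (5.24%) lower, with a median log2 ratio of -0.09. Scx was level, with a ratio of 1.02 (0.974 to 1.07). Sox9 stood at 708 against 1214 CPM, a ratio of 0.583 (0.540 to 0.629), Col2a1 at 2463 against 4282 CPM, 0.575 (0.552 to 0.599), and Acan at 104 against 259 CPM, 0.403 (0.330 to 0.488). The difference was larger for Snorc, a membrane proteoglycan of chondrocytes, with a ratio of 0.0835 (0.0357 to 0.167), and for Spp1, which codes for osteopontin, with 4 UMIs and a ratio of 0.0250 (0.00678 to 0.0644). Pax1 was closer to the level of that cluster, at 0.863 (0.805 to 0.924). In the cartilage list 0 of 16 genes were higher and 5 lower, with a median of -0.87, while 25 of 25 mitotic genes were higher, with a median of 4.49.

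The mesenchyme-nearest cells were set against the mesenchyme cluster. Of 11735 genes 1275 (10.9%) were at least 2-fold higher and 1550 (13.2%) lower, with a median log2 ratio of -0.03, over 19 cells. Mitotic genes were higher in 25 of 25 cases, with a median of 3.26, and tendon genes higher in 0 and lower in 5 of 24, with a median of -0.04. Erythroid genes were higher in 4 of 4, with a median of 6.35, in a group that holds 1 of the haemoglobin-rich cells described later. Leukocyte genes were 2-fold lower in 6 of 6 cases, with a median of -5.76. The summed leukocyte list was higher in the mesenchyme cluster, at 2548 CPM, than in any other tail cluster. Whether leukocytes lie within that cluster, and their part in these values, was not tested. Lyz2, an enzyme of myeloid cells, stood at 713 CPM in the mesenchyme cluster and had 1 UMI in these cells, and Tyrobp had 0 UMIs. Crabp1, which binds retinoic acid, was at 1750 against 687 CPM, a ratio of 2.55, while Dcn had 0.904 and Col1a1 1.12.

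Against the whole fibrocartilage cluster, 1005 of 11316 genes (8.88%) were at least 2-fold higher in the proliferating cells and 570 (5.04%) lower, with a median log2 ratio of -0.08. Mitotic genes were higher in 25 of 25 cases, with a median of 4.28, cartilage genes lower in 16 of 16, with a median of -2.55, and tendon genes higher in 14 and lower in 2 of 29, with a median of 0.91. The top of the list held Dmrt2, a somite transcription factor, with 1 UMI in fibrocartilage and a ratio of 183 (32.5 to 7241), and the smooth muscle actin gene Acta2, at 168 against 1.21 CPM. At the bottom lay Spp1, Snorc, Scin and Lgals3, with ratios from 0.0134 to 0.0525. Against the mesenchyme cluster 1212 of 11667 genes (10.4%) were higher and 1036 (8.88%) lower, with a median of 0.01, and 12 of 12 cartilage and 8 of 8 sclerotome genes were higher. Some of these passed the filter through the proliferating cells alone, so they could hardly come out lower. Without thinning, Sox9 was held by 8.28% of the mesenchyme and 43.5% of the proliferating cells, and Pax1 by 8.28% and 36.6%.

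Against all other cells of the tail, 522 of 11283 genes (4.63%) were at least 2-fold higher and 360 (3.19%) lower, with a median log2 ratio of 0.02. The highest ratio belonged to Mxd3, a MAX partner of S phase, at 146 against 9.77 CPM, a ratio of 14.96 (12.9 to 17.3), ahead of Top2a at 13.2 and Depdc1a at 12.7. Among the lowest were genes of mast cells (Cma1, 1 UMI, and Cpa3, 2 UMIs), muscle (Myog, 3 UMIs) and endothelium (Cldn5, 3 UMIs). Tendon genes were higher in 1 and lower in 0 of 29 cases, with a median of 0.37, and cartilage genes in neither direction in 12, with a median of 0.16.

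Markers of other lineages were far below their level in the clusters they mark. The summed leukocyte list stood at 2.31 CPM, against 3.06 CPM in the tendon cells and 2548 CPM in the mesenchyme cluster, where it was highest. Of its 7 genes 3, namely Ptprc, Tyrobp and C1qb, had 0 UMIs in the proliferating cells. The endothelial list stood at 15.2 against 23.2 CPM and 6270 CPM in endothelium, the epidermal list at 47.3 against 27.8 CPM and 8755 CPM in the second skin cluster, and the muscle list at 44.6 against 31.6 CPM and 7348 CPM in muscle. The nerve and glia list stood at 126 against 120 CPM, of which Nes, a filament gene that progenitors also express, gave 85.2 CPM, and the notochord list at 5.31 against 7.11 CPM. The bone list stood at 27.3 against 27.1 CPM. No leukocyte, endothelial or notochord gene passed the filter for a ratio. The single muscle, epidermal and bone genes that did were within 2-fold, at log2 ratios of -0.12, 0.24 and 0.21, and 1 of 3 nerve genes, Stmn2, was lower at a ratio of 0.49, with a median of -0.01.

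The stromal and signalling lists are given beside the 5.47% of all genes that were higher and the 2.76% that were lower. Of 12 loose mesenchyme genes 11 were tested and 0 passed 2-fold either way, with a median log2 ratio of -0.37, although 1 was lower without doublets or with haemoglobin, mitochondrial and ribosomal protein genes left out of the total. Prrx1, a mesenchymal transcription factor, stood at 443 against 585 CPM and Dlk1, a membrane protein of progenitors, at 877 against 1209 CPM. Of 8 smooth muscle genes 5 were tested and 0 passed, with a median of -0.02, although 1 was lower with the mean over cells or after thinning. Acta2 was at 168 against 277 CPM, while the 3 genes under the filter were each more than 2-fold lower, namely Myh11 with a ratio of 0.310 (0.239 to 0.397), Cnn1 with 0.405 (0.276 to 0.579) and Rgs5 with 0.286 (0.197 to 0.406). In the list of growth factor, TGF-beta and hedgehog pathways 1 of 22 genes was higher and 0 lower, with a median of -0.06. There was 1 lower gene with the mean over cells, with haemoglobin, mitochondrial and ribosomal protein genes left out of the total or without doublets, 2 were higher relative to the median gene, and 0 were higher and 2 lower of 19 after thinning to 10000 UMIs. The higher gene was the receptor Fgfr3, at 14.55 against 2.67 CPM and 67.4 CPM in fibrocartilage, a ratio of 5.46 (3.43 to 8.91). Igf1, a growth factor ligand, stood at 156 against 305 CPM, a ratio of 0.51 (0.47 to 0.56), and Tgfb2 at 143 against 284 CPM, a ratio of 0.50 (0.46 to 0.55).

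Haemoglobin transcripts rested on a handful of cells. In 5 proliferating cells, haemoglobin genes made up 15.3% to 31.7% of UMIs, and the next cell stood at 0.0944%. These 5 cells held 97.9% of the haemoglobin UMIs of the cluster. With all cells counted the sum was 8817 CPM against 2038 CPM in the tendon cluster, which had 4 such cells, and the 4 erythroid genes tested of 7 were at least 2-fold higher, with a median log2 ratio of 1.76. Without such cells it was 194 against 246 CPM, a ratio of 0.787 (0.726 to 0.852), so the direction turned. Of the 5 cells 2 were tendon-nearest, 2 fibrocartilage-nearest and 1 mesenchyme-nearest, and their part in other values is given with the other alternatives.

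Cells of the culture carry the same codes, 1353 of them code 2 (median 7324 UMIs) and 2964 code 1 (median 4918.5 UMIs). The paper describes assigning the culture cells to the tail clusters by nearest neighbours. Likeness between libraries within a code is therefore partly built in. Of 8077 genes tested, 340 (4.21%) were at least 2-fold higher in the proliferating culture cells than in the culture cells of code 1 and 15 (0.186%) lower, with a median log2 ratio of -0.04. Mitotic genes were higher in 24 of 25 cases with a median of 2.30, spindle genes in 26 of 27 with a median of 2.35, centromere genes in 28 of 30 with a median of 2.10 and S phase genes in 22 of 38 with a median of 1.11. Each median was smaller than in the tail. For Top2a the level of the proliferating cells was alike, 1409 CPM in culture and 1348 CPM in the tail, but code 1 stood at 142 CPM in culture and 20.2 CPM in the tail. The median G2M share of code 1 was 0.299% in culture and 0.195% in the tail, with an upper quartile of 0.594% in culture, and that of code 2 was 1.88% and 1.76%. Histone and chromatin genes were higher in 15 and lower in 1 of 22 cases with a median of 1.75. Tendon genes passed 2-fold in neither direction in 28 cases, with a median of -0.23, and cartilage genes were higher in 4 of 11, with a median of 0.47.

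**Figure D5:**
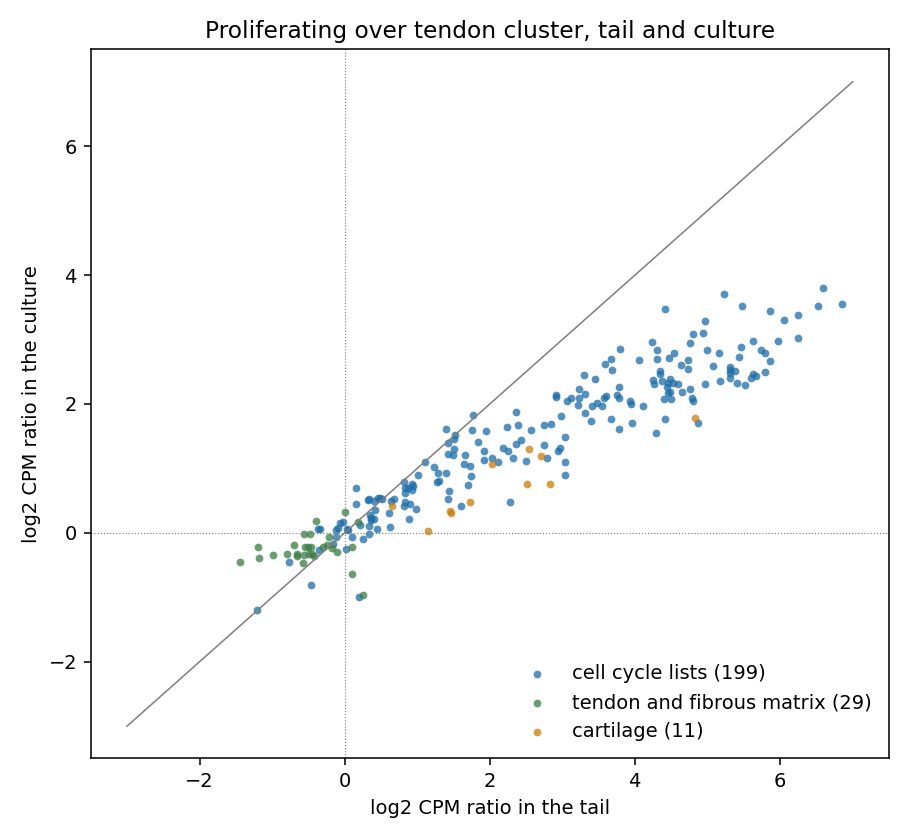
Log2 ratio of CPM in code 2 over CPM in code 1 in the tail (horizontal axis) and the culture (vertical axis), with a dot per gene for the cell cycle lists (199 genes), tendon (29) and cartilage (11), and a line where both ratios are equal. Most cell cycle genes lie below the line, with larger ratios in the tail.

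Directly between libraries, the proliferating cells of the culture had 618 of 11232 genes (5.5%) at least 2-fold higher and 1525 (13.6%) lower than those of the tail, with a median log2 ratio of -0.18. Library, depth and origin cannot be told apart here. None of 25 mitotic genes passed 2-fold, with a median of 0.08, and of 27 spindle genes Ckap2 alone did, at a ratio of 2.06. Histone and chromatin genes were lower in 13 and higher in 0 of 23 cases, with a median of -1.04, among them Hist1h2ae at 260 against 1089 CPM and Hist1h1b at 2884 against 5203 CPM. Of the CDK inhibitors 3 of 7 were higher and 0 lower, with a median of 0.59, led in level by Cdkn1a, which codes for p21, at 695 CPM in culture and 8.78 CPM in the tail, a ratio of 79.2. Loose mesenchyme genes were lower in 8 and higher in 0 of 11 cases, with a median of -2.70. Tendon genes were higher in 8 and lower in 3 of 29 cases, with a median of 0.24, cartilage genes higher in 1 and lower in 4 of 14, with a median of -0.52, and sclerotome genes higher in 3 and lower in 4 of 8, with a median of -0.65.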

How the data were processed

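The values are UMI counts per gene and cell, deposited by the authors, from 10x Genomics Chromium Single Cell 3′ v3 libraries processed with cellranger 3.1.0 and Seurat 3.0. Reads mapping to several genes were ignored, cells with more than 7.5% mitochondrial transcripts were removed, as were the 2% with the fewest and the 2% with the most transcripts, and the highest mitochondrial share in the tail was 7.46%. The genome build of the counts is not given in the sources used here.

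CPM was the sum of UMIs over a group of cells divided by the group's total. A gene was tested when at least 10% of the cells of either group held a UMI, and called at 2-fold. Levels have exact Poisson, ratios conditional binomial and shares Clopper-Pearson intervals at 95%. A ratio against 0 UMIs uses a floor of 3 counts. The S phase and G2M lists of 43 and 54 genes came from Seurat 5.3.0. Nearest profiles used multinomial likelihoods with a pseudocount of 1 CPM. Scrublet, at an expected doublet rate of 6%, called 9 of 2052 tail cells (0.439%) and 1 proliferating cell, which were kept, and leaving them out was an alternative. The random seed was 1.

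Named genes are the label markers, genes of the hand-written lists, and the 15 highest and 15 lowest ratios against code 1, code 4 and all other cells, among genes reaching 100 UMIs summed over the groups and 50 CPM in the higher. The members and lists were chosen with earlier results of these data known. Python 3.11.15, NumPy 2.4.6, SciPy 1.17.1, Scanpy 1.11.5, Matplotlib 3.10.9 and R 4.3.3 were used, and the code was checked on simulated data.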

Additional observations from a re-analysis of the deposited data

Results flagged for a closer look

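For 12 list genes with at least 1 UMI in each of the 4 groups compared, the ratio of code 2 over code 1 lay above 1 in 1 library and below 1 in the other, with counting intervals on opposite sides of 1. Each library is 1 sample, so the difference between tail and culture was not tested. Among tendon genes, Tnmd had a ratio of 1.20 in the tail and 0.515 in culture, and Col14a1 0.760 and 1.14. The kinase inhibitor gene Cdkn1c had 0.776 in the tail and 1.05 in culture. Of mesenchymal and sclerotome genes, Twist1 had 0.904 and 1.05, Twist2 1.39 and 0.770, Pdgfra 0.797 and 1.40, Dlk1 0.726 and 1.10, and Tbx18 1.32 and 0.680, in the same order. In the tail, Twist2 was far higher in the mesenchyme-nearest than in the tendon- and fibrocartilage-nearest proliferating cells. Its ratio without the mesenchyme-nearest cells was not tested. Nes had 1.47 and 0.838, and the growth factor gene Tgfb1 had 1.54 and 0.806. The haemoglobin genes Hbb-bs, at 2.77 and 0.188, and Hba-a1, at 3.96 and 0.163, had tail ratios under 1 once cells with over 1% haemoglobin UMIs were left out. In culture they rest on few UMIs, 4 of Hbb-bs and 2 of Hba-a1 in code 2.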

How the results depend on the processing

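The 618 genes higher in the proliferating than in the tendon cells became 1057 at 1.5-fold, 392 at 3-fold and 2334 without the filter on cells with a UMI, and the 312 lower genes became 1356, 40 and 1967. Asking for a UMI in 25% of cells gave 484 higher and 85 lower genes, since fewer genes were tested. Under the other alternatives (other definitions of CPM, thinning to 10000 UMIs, centring on the median gene, leaving out doublets or cells with over 1% haemoglobin UMIs) the counts lay between 567 and 691 higher and 219 and 386 lower. The tendon-nearest share fell from 58.1% to 40.9% with Spearman correlation over the most variable genes, and the cause was not tested, whereas other alternatives gave 58.1% to 60.8%. The share of proliferating cells with a Scx UMI was 48.0% at 10000 UMIs and 54.3% without thinning, as deeper cells hold more UMIs. Outside the cluster, 65 cells reached its median G2M share, 34 did so for the label markers and 200 reached its 10th percentile, a lower level by construction. Of 1806 recomputed ratios of 301 list genes, 1659 stayed within their counting interval and 143 left it. Genes with ratios near 1, such as Pttg1, can change direction with the scaling. The other 4 ratios reversed without cells over 1% haemoglobin, Hbb-bt to 0.752, Hbb-bs to 0.854, Hba-a1 to 0.774 and Hba-a2 to 0.800. Leaving out haemoglobin-rich cells, and leaving out all 2-fold genes when placing cells, were chosen after seeing the data. No paired analysis was possible because there was 1 library per condition. Depth limits genes with few UMIs, and the intervals do not cover differences between embryos or dissections.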
